A study of Homo sapiens with 2 samples.

Results

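Complex I (NADH:ubiquinone oxidoreductase) is the entry enzyme of the mitochondrial respiratory chain. It takes electrons from NADH in a matrix arm that carries flavin mononucleotide and a chain of iron-sulphur clusters, passes them to ubiquinone, and pumps protons through a membrane arm. Core subunits carry out the catalysis and are conserved in bacteria, accessory subunits surround them, and assembly factors help to build the enzyme without remaining in it. The 43 nuclear genes described here were chosen by name and not by their values. They are 6 core subunit genes, 30 accessory subunit genes and 7 assembly factor genes of the NDUFAF series, of 57736 genes listed in the files. The remaining core subunits, among them those encoded by the mitochondrial genome, were not analysed here.

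Poly(A)+ RNA of wild type HEK293T cells was sequenced. HEK293T is an established line derived from human embryonic kidney and transformed with adenoviral DNA, to which SV40 large T antigen was added. The cultures received 20 min at 43 °C and then 6 h of recovery at 37 °C before lysis, and the labels gave 1 group of 2 separately lysed libraries, replicate 1 and replicate 2. These times are those of the labels. The study's text names a longer heating for its heat shock treatment and gives no separate heating time for the 6 h recovery. The labels and the text thus differ on the heating. Both came from 1 cell line, and untreated cells are not analysed here, so no value below is a change caused by heat shock. The libraries held 22529828 and 26890199 expected counts, which are read numbers estimated per gene, and levels are given as TPM, a scale of relative transcript abundance that is corrected for transcript length and sums to the same total in each library. In such bulk RNA, fewer expressing cells and less RNA per cell cannot be told apart. Of 8 markers listed for the embryonic kidney line, LHX1 could not be matched by symbol. Of the 7 analysed, 6 reached 1 TPM in both libraries, from PAX2 with 7.35 ± 0.69 TPM to VIM with 647 ± 51.6 TPM (SD, n = 2). PAX8, a kidney transcription factor, was the exception with 0.050 TPM. Of 8 markers of liver, blood, muscle, pancreas and glia, only the glial gene GFAP passed the same threshold, with 2.96 ± 0.35 TPM (SD, n = 2).

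Nuclear respiratory factor 1 (NRF-1), YY1, GABP and the oestrogen-related receptors are known regulators of respiratory chain genes, and their binding motifs are what many of these promoters are known for. Promoter sequences from RefSeq (GRCh38.p14, from 250 bases before to 50 bases after each start site, both strands searched) were matched for 38 of the 43 genes. The NRF-1 recognition sequence GCATGCGC was present in 8 of 38 genes (21.1%), beside 3.68% of 27305 genes in the same table and 4.89% of the 15843 protein-coding ones. The windows that hold it are shown because members and other genes differed in how often they held this motif, and capitals mark the bases that match on either strand:
NDUFS7 (core, chr19:1383808-1383867, plus strand): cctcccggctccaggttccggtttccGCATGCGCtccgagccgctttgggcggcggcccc
NDUFB4 (accessory, chr3:120596152-120596211, plus strand): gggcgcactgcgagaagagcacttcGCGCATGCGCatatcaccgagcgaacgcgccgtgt
NDUFS6 (accessory, chr5:1801335-1801394, plus strand): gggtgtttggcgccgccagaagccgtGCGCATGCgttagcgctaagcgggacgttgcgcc
NDUFA6 (accessory, chr22:42090905-42090964, minus strand): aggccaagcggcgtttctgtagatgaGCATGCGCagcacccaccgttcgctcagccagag
NDUFA5 (accessory, chr7:123557958-123557987, minus strand): gtatgcccatcGCGCATGCgtcaatttttc
NDUFA8 (accessory, chr9:122159764-122159793, minus strand): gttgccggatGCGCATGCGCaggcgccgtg
NDUFAF4 (assembly, chr6:96897867-96897896, minus strand): ccctcacttgtGCGCATGCtccgggtgtcc
NDUFAF5 (assembly, chr20:13785014-13785043, plus strand): agccgcgctgGCGCATGCGCacaaaaagcg

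In NDUFB4, NDUFA8 and NDUFAF5 the match lies on both strands of a 10-base palindrome, and in NDUFA8 and NDUFAF5 it begins 4 bases before the annotated start site. The YY1 motif ATGGCGGC was found in 9 of 38 genes (23.7%), among them the core genes NDUFS1, NDUFS3 and NDUFS8, beside 5.23% of protein-coding genes. In most of these genes it follows the start site. AAGGTCA, the motif of the oestrogen-related receptors, was in 4 of 38 (10.5%) beside 4.26%, in NDUFA5, NDUFB4, NDUFS6 and NDUFS7. The shares for the remaining motifs lay near or below those of protein-coding genes, with 15.8% beside 16.5% for the GABP motif CCGGAAG and 28.9% beside 42.1% for the CCAAT box. The heat shock element core GAANNTTC was in 4 of 38 genes (10.5%, beside 7.38%), NDUFA10, NDUFA12, NDUFAB1 and NDUFB11. No match overlapped a match to another of these motifs, and 12 of the 38 genes held none of them. A match is a description of the letters and not evidence of binding.

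All 43 complex I genes were expressed after recovery. Each reached 1 TPM in both libraries, against 26.3% of all listed genes and 12367 of 19391 protein-coding genes (63.8%), and 42 had at least 10 TPM, the exception being NDUFAF1. Together they held 0.507% of all TPM. Their levels spanned 129-fold, from 4.93 TPM for NDUFAF1 to 636 TPM for NDUFB10. Expected counts ran from 111 for NDUFS4 in replicate 1, where the counting error is 9.49% of the value, to 7095 for NDUFB10.

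The highest members were small accessory subunits of the membrane arm. NDUFB10, a membrane-arm subunit on chromosome 16 (2009539 to 2011976, GRCh37), had 706 TPM in replicate 1 and 567 TPM in replicate 2, and 129 protein-coding genes had a higher mean. NDUFA11, a hydrophobic subunit embedded in the membrane arm, followed with 475 and 377 TPM. NDUFS5, on the intermembrane-space face of the membrane arm, had 344 and 327 TPM (mean 335.5 ± 12.0, SD, n = 2). These genes kept the same order in both libraries, with no overlap between neighbours. NDUFB9, a member of the LYR-motif proteins that bind acyl carrier protein, had 293 and 245 TPM. NDUFB4, a membrane-arm subunit, had 280 and 242 TPM, so its range overlapped that of NDUFB9.

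The core subunit genes fell into a high pair and a lower group of 4. NDUFV1, which holds the flavin and oxidises NADH, had 271 TPM in replicate 1 and 232 TPM in replicate 2. NDUFS8, an iron-sulphur protein close to the ubiquinone site, had 245 and 191 TPM. Both stood above the other 4 core genes in each library. NDUFS7, which carries the terminal iron-sulphur cluster beside ubiquinone, had 68.6 and 55.5 TPM, and NDUFS1, the largest subunit with several iron-sulphur clusters, had 57.8 and 62.7 TPM. The order of NDUFS7 and NDUFS1 changed between the libraries. NDUFV2, the iron-sulphur partner of NDUFV1, had 31.1 and 42.6 TPM, and NDUFS3, a structural subunit of the ubiquinone-reducing module, had 35.6 and 33.0 TPM. NDUFV1 and NDUFV2, whose products form a pair in the enzyme, thus had mean levels of 252 ± 27.0 and 36.8 ± 8.13 TPM (SD, n = 2), with no overlap between the libraries.

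The lowest subunit gene was NDUFS4, an accessory subunit at the junction of the NADH-oxidising and ubiquinone-reducing modules. It had 10.2 TPM in replicate 1 and 10.9 TPM in replicate 2, from 111 and 134 counts. The next lowest by mean, NDUFB2 of the membrane arm, had 26.8 and 27.7 TPM, and NDUFA5 was next lowest in replicate 1 with 22.6 TPM. NDUFS4 stood apart from every other subunit gene in both libraries. The highest subunit exceeded the lowest 69.2-fold in replicate 1 and 52.1-fold in replicate 2. NDUFAB1, the mitochondrial acyl carrier protein that sits in both arms, had 43.3 and 35.9 TPM.

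Most assembly factor genes lay at the lower end. NDUFAF1, which acts in the assembly complex of the membrane arm, had 5.44 and 4.41 TPM and was the lowest of all 43 genes in both libraries. NDUFAF6 and NDUFAF4, which act in the assembly of the ubiquinone-reducing module, had 14.5 and 15.8 TPM and 14.9 and 16.5 TPM. NDUFAF3, the partner of NDUFAF4 in that step, was the highest of the series with 80.3 and 60.5 TPM. NDUFAF3 and NDUFAF4 therefore did not overlap, although their products work together. Of the 7 genes, 5 lay below the mean of NDUFB2, and 1 lay below NDUFS4.

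**Figure D1:**
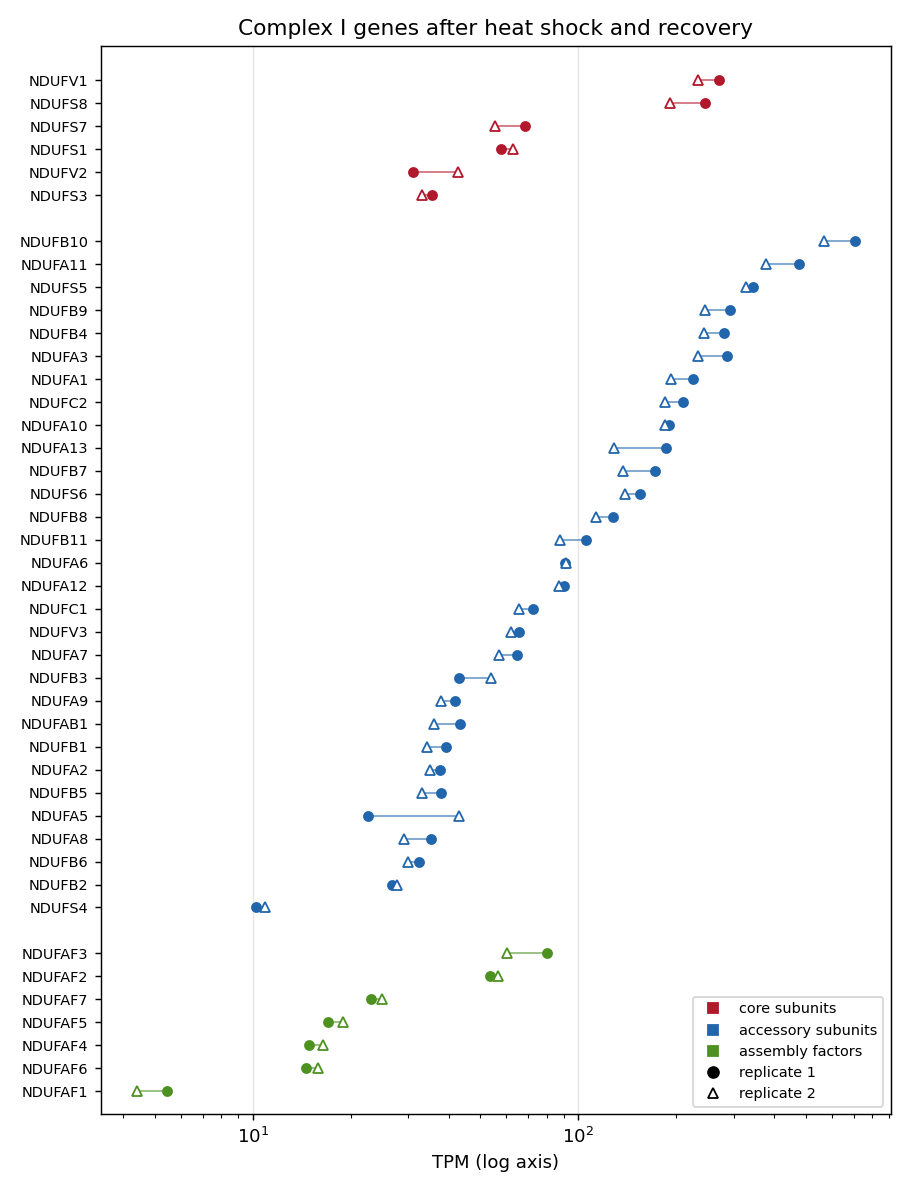
TPM of each of the 43 complex I genes on a log axis, by class and in order of mean level, with filled circles for replicate 1, open triangles for replicate 2 and a line joining them. NDUFB10 lies highest at 706 and 567 TPM, NDUFAF1 lowest at 5.44 and 4.41 TPM, and NDUFA5 has the longest line among the accessory genes.

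By class, the median was 61.2 ± 2.87 TPM for core, 90.0 ± 2.13 TPM for accessory and 18.0 ± 1.35 TPM for assembly genes (SD of the library medians, n = 2). The core median exceeded the assembly median 3.39 ± 0.42-fold, and the accessory median exceeded it 5.00 ± 0.49-fold (SD, n = 2). In CPM, counts scaled to the library total and not to length, the core median was 8.80-fold the assembly median, and the order of core and accessory genes turned, with medians of 88.4 and 54.6 CPM. Of the 36 subunit genes, 15 exceeded 100 TPM, 2 of them core and 13 accessory, and none of the assembly genes did. The classes still overlapped, since 18 subunit genes lay below NDUFAF3. The median was 156 ± 32.6 TPM for the 20 membrane-arm genes and 60.9 ± 5.69 TPM for the 15 matrix-arm genes, core genes included. No test was made between classes, because genes are not replicates of a class. When all 43 genes were ordered by mean TPM, 15 of the 42 neighbouring pairs did not overlap between the libraries and 27 did, so the order within the middle of the range is not resolved by 2 libraries.

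The other complexes of the respiratory chain had higher median levels than complex I. All 39 nuclear genes listed for complexes II to V had at least 1 TPM in both libraries. The median over 36 complex I subunit genes, 78.8 TPM, was 0.817 ± 0.012 times that of complex II, which oxidises succinate (96.4 TPM, SDHD 12.5 to SDHC 129). For complex III (165 TPM, UQCR11 36.4 to UQCRH 573) the ratio of the medians of gene means was 0.476. The single libraries gave higher ratios, 0.492 in replicate 1 and 0.509 in replicate 2 (SD 0.012). Against complex IV, the cytochrome c oxidase (160 TPM, COX6C 27.7 to COX6A1 847), the complex I median was 0.492 ± 0.010 times, although in CPM this ratio was 0.890. Against complex V, the ATP synthase, it was 0.371 ± 0.039 times (212 TPM, ATP5PD 79.6 to ATP5MF 1094; all SD, n = 2). Each of these lists overlapped the range of complex I.

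A further 11 genes for complex I assembly factors had a median of 32.9 ± 5.34 TPM (SD, n = 2), from TMEM186 with 4.51 TPM to TIMMDC1 with 72.4 TPM, beside 4.93 to 70.4 TPM for the 7 NDUFAF genes described above. TMEM186 and NDUFAF1 act in the same assembly complex and were the lowest of their lists. The 9 regulators of respiratory genes had a median of 16.8 TPM. PPARGC1A, a coactivator of mitochondrial biogenesis, was lowest with 2.77 and 4.32 TPM, and YY1 highest with 75.2 and 86.2 TPM.

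**Figure D2:**
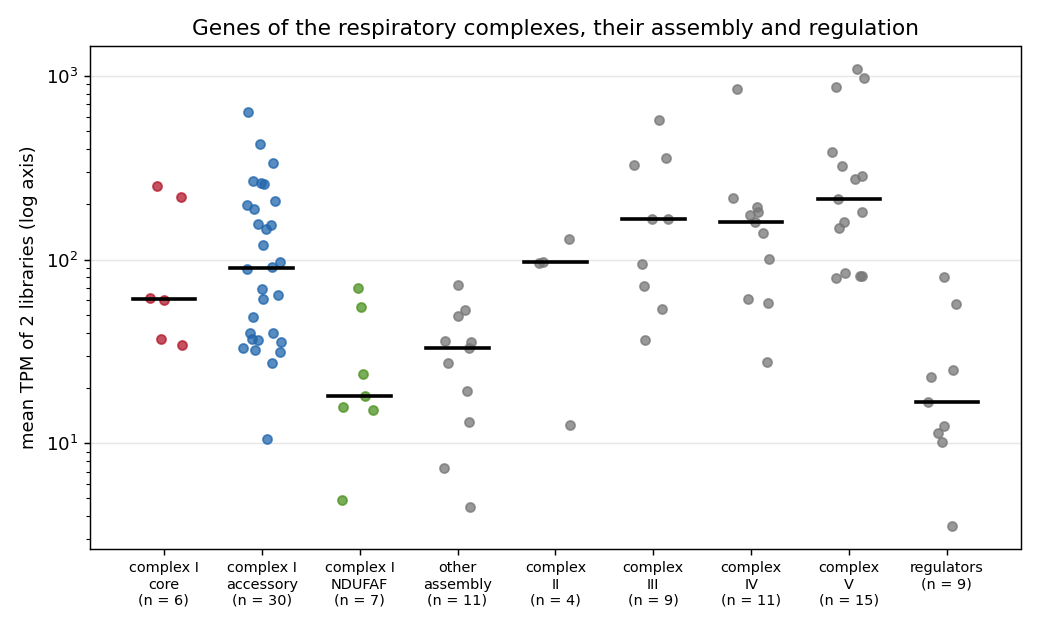
Mean TPM of 2 libraries on a log axis for the genes of each list, 1 point per gene, with a bar at the median of the list. The median of the assembly factor genes (18.0 TPM) lies below those of the core (61.2) and accessory (90.0) genes, with overlapping ranges. Complexes III, IV and V have higher medians, and their ranges overlap those of the complex I subunit genes.

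The spread between the replicates was tested gene by gene with an exact two-sided binomial test on the counts, conditional on their sum, with Benjamini-Hochberg adjustment over 19714 genes. It compares these 2 libraries and not conditions. At an adjusted p below 0.05, 42.2% of all genes tested differed, 22.1% of all being higher in replicate 2 and 20.1% higher in replicate 1. Of the 43 complex I genes, 29 differed, and 27 of these were higher in replicate 1 and 2 in replicate 2. The calls were 5 of 6 core, 23 of 30 accessory and 1 of 7 assembly genes. The test passes smaller ratios at higher counts, and the medians of these classes were 88.4, 54.6 and 10.0 CPM. The class calls therefore do not show that assembly genes varied less. Every member had at least 100 counts in sum, and among the 13840 genes with that many, tested alone, 57.0% differed, as did 30 of the 43. All 43 ratios lay within 2-fold, with a median log2 ratio (replicate 2 over replicate 1) of -0.25, beside 0.02 over all genes tested. As a ratio of TPM, the median over the members was -0.15. The same direction was seen in complexes II to V, where 34 of 39 genes differed and 33 of these were higher in replicate 1, with a median of -0.28. When edgeR's exact test was run with a biological coefficient of variation set to 0.1, 1 of the 43 genes, NDUFA5, differed, beside 7.69% of all genes.

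The genes with the largest ratios included the poorest in GC and several of the richest. NDUFA5, a small subunit of the matrix arm (chromosome 7, 123177051 to 123197958, GRCh37), had 332 counts in replicate 1 and 739 in replicate 2, or 22.6 and 43.1 TPM. Its log2 ratio was 0.87 (adjusted p = 5.5e-20, exact binomial test), the highest of the 43 genes, and its transcripts were the poorest in GC with 35.2%. In the other direction, NDUFA13, a membrane-arm subunit also studied as a cell death regulator, had 185 TPM in replicate 1 and 129 TPM in replicate 2, with a log2 ratio of -0.52 (adjusted p = 8.0e-25, exact binomial test) and a GC content of 62.1%. NDUFAF3 had a log2 ratio of -0.50 and a GC content of 60.3%, and NDUFS8 had -0.44 and 62.4%. These 3 genes were lower in replicate 2 by the same test. Their ratios were smaller once the trend with GC content described below was removed, with -0.28 for NDUFA13, -0.29 for NDUFAF3 and -0.20 for NDUFS8, and each still passed. NDUFAF4 had a log2 ratio of 0.26, which did not pass the test (adjusted p = 0.10, exact binomial test), from 204 and 297 counts and a GC content of 38.1%.

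The ratio followed GC content across the members as it did across all genes. Over the 43 genes r was -0.70 (Pearson) and rho -0.75 (Spearman), and over the 13544 genes whose counts summed to 100 or more they were -0.62 and -0.69. These are descriptions across genes of the same 2 libraries, with no test. The 27 genes that were higher in replicate 1 had a median GC content of 53.6% (41.8% to 65.4%), and the 2 genes higher in replicate 2 had 35.2% and 46.1%. Most complex I genes were nevertheless poorer in GC than the median of 49.9% over all those genes, with 17 of 43 above it.

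With the GC trend of all genes removed, the members were still lower in replicate 2. The trend was the median log2 ratio in 50 classes of GC content. The background of the test was then 29.0% of 19048 genes, 14.7% higher in replicate 2 and 14.3% higher in replicate 1. This background includes genes with fewer counts than any member. Of 12367 protein-coding genes with at least 1 TPM in both libraries, 4638 differed, 2448 of them higher in replicate 1. Of the 43 genes, 28 differed, 27 higher in replicate 1 and 1, NDUFV2, higher in replicate 2, and 39 lay below the trend, beside 46.8% of all genes. By class the calls were 4 of 6 core, 20 of 30 accessory and 4 of 7 assembly genes, all 4 assembly genes being higher in replicate 1. Between the fits, 21 genes were called in both with the same sign, 8 only without the correction and 7 only with it. Complexes II to V again behaved alike, with 38 of 39 genes below the trend. The genes called only after the correction were poorer in GC than that median, for example NDUFAF4, whose log2 ratio turned from 0.26 to -0.41 (adjusted p = 0.0099, exact binomial test), and NDUFS1, which turned from 0.05 to -0.13 (adjusted p = 0.0013, exact binomial test). Scaled by library totals instead, NDUFS1 passed in the opposite direction, with a log2 ratio of 0.08 (adjusted p = 0.047, exact binomial test). The core genes NDUFS7 and NDUFS3, with GC contents of 65.4% and 53.6%, no longer passed, with log2 ratios of -0.10 and -0.22. NDUFA5 is itself the median gene of the class of lowest GC content, so its corrected ratio is 0 by construction and carries no information.

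**Figure D3:**
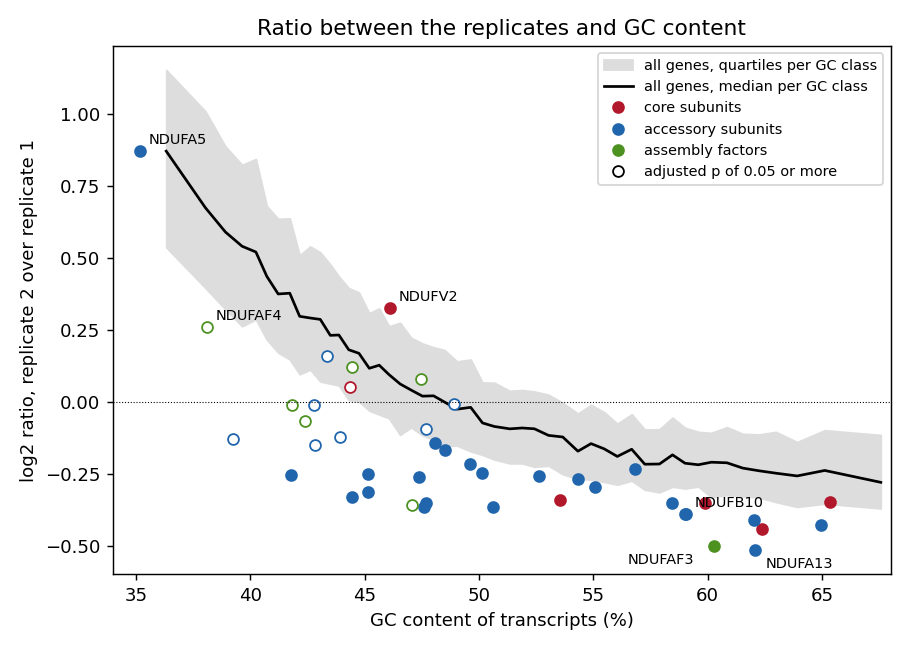
Log2 ratio of replicate 2 over replicate 1 against GC content of the transcripts (%), for the 43 complex I genes by class (filled circles where the adjusted p was below 0.05) and for all genes whose counts summed to 100 or more (line, median of each of 50 GC classes; grey band, quartiles). Both fall with GC content, and 39 of the 43 genes lie below the line.

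The level itself also moved with GC content in these genes. Over the 43 genes, log2 mean TPM and GC content gave r = 0.51 (Pearson) and rho = 0.52 (Spearman), while over 12367 detected protein-coding genes the values were 0.0046 and 0.014. With transcript length on the log2 scale, Pearson's r over the 43 genes was -0.35. Between the replicates, log2 TPM of the 43 genes gave r = 0.989 (Pearson). These correlations share 2 libraries and 1 annotation and are given without a test.

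Several complex I genes share their exons with another listed gene, and then the count depends on how reads were divided. Exons of 24 members overlapped those of another gene, on the same strand in 14 and on the opposite strand in 20, and 6 members were part of a readthrough gene that joins them to a neighbour. The sources used here do not say if the counting took account of strand, and reads of genes on opposite strands may not have been told apart. The largest case was NDUFA7, an accessory subunit of the matrix arm on chromosome 19 (8373652 to 8386259, GRCh37). It had 65.0 and 56.9 TPM, while the readthrough gene ENSG00000167774, which shares 452 bases of its exons, was given 184 and 162 TPM. NDUFA7 thus received 26.2% and 26.0% of the reads of the pair, and its posterior SD, the uncertainty of read assignment, reached 15.4% of its count. With the readthrough gene added, the level was 234 ± 21.7 TPM (SD, n = 2), 3.84-fold that of NDUFA7 alone. For each of the other 5 members with readthrough genes, adding them raised the level of that member by 1.27-fold or less, with 1.27-fold for NDUFA9 and 1.08-fold for NDUFB8.

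NDUFV2, on chromosome 18 (9102628 to 9134343, GRCh37), was the other gene with a posterior SD above 10% of its count, at up to 11.1%. A lncRNA gene on the same strand, ENSG00000265257, shares 771 bases of its exons and was given 140 counts in replicate 1 and 0 in replicate 2, while NDUFV2 had 489 and 745. NDUFV2 was 1 of the 2 genes called higher in replicate 2, with a log2 ratio of 0.33 (adjusted p = 3.8e-04, exact binomial test). With the lncRNA gene added the log2 ratio was -0.04, from sums of 39.9 and 42.6 TPM, and with the GC trend removed as well it was -0.13, against 0.23 for NDUFV2 alone. The posterior SD of the lncRNA count was 54.8 in replicate 1 and 35.4 in replicate 2.

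**Figure D4:**
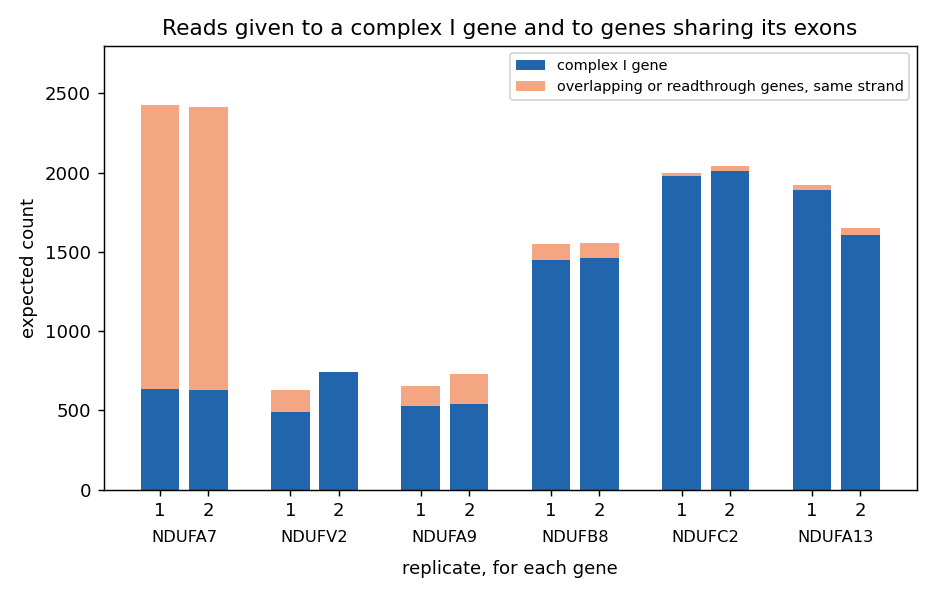
Expected counts in each replicate given to 6 complex I genes (blue) and to genes that share their exons on the same strand (orange, stacked). NDUFA7 receives 26.2% and 26.0% of its stack, and the orange part of NDUFV2 is present in replicate 1 and absent in replicate 2.

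For most members the estimated uncertainty of read assignment was small. The posterior SD was below 1% of the count in 35 of the 43 genes. Of the 50-base sequences of their transcripts, the length of a read, 10 genes shared none with another gene and 17 shared more than 5%. The annotation lists 60 pseudogenes of 20 members, of which 39 had no count in either library, and all 60 together had 0.070% of the reads of the 43 genes. NDUFV2P1 was the highest, with 24.8 counts summed over the libraries.

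The 43 genes lay on 21 chromosomes, with 6 on chromosome 19 (14.0%, beside 7.47% of protein-coding genes). These were NDUFS7, NDUFA3, NDUFA7, NDUFA11, NDUFA13 and NDUFB7, with a median of 156 TPM and a median GC content of 62.1%. All 6 were called higher in replicate 1, beside 27 of the 43 members, 20.1% of all genes tested and 3623 of 12367 detected protein-coding genes. The same held for all 4 members on chromosome 11. With the GC trend removed, 4 of the 6 on chromosome 19 were still called higher in replicate 1, and NDUFS7 and NDUFA7 were not. Beside this stood 27 of the 43 members, 14.3% of all genes tested and 2448 of 12367 detected protein-coding genes. The closest pair of members was NDUFV1 and NDUFS8 on chromosome 11, 418 kb apart, which were also the highest core genes. No test was made of these positions.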

How the data were processed

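Poly(A)+ RNA of 2 heat-shocked HEK293T libraries was analysed. Per the submitters' processing notes, reads were trimmed with Trimmomatic 0.36, aligned with STAR 2.6.1c to hg19 (GRCh37) and quantified with RSEM 1.3.1, whereas the study's methods name featureCounts. The deposited expected counts are estimated reads per gene, with multi-mapped reads divided among genes; the deposited TPM are scaled by the authors to effective length. A pooled table of both libraries served as an alternative.

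Expected counts were rounded, scaled by TMM (edgeR 4.0.16, R 4.3.3) and compared with an exact binomial test (scipy 1.17.1) for genes whose counts summed to 10 or more. Log2 ratios used a pseudocount of 0.5. The binomial test was first run on simulated counts. GC content and overlaps came from GENCODE annotation of GRCh37, which matched 96.1% of listed genes. P-values measure only the difference between 2 libraries. Counting errors cover counting only.

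Members and lists were chosen with earlier results of these data known. Named genes were all core genes, the 5 highest and 3 lowest, the extremes of each class, arm and list, the 3 largest ratios in each direction, and genes with a posterior SD above 10%. NDUFA9, NDUFB8, NDUFA3, NDUFB7, genes of motifs and NDUFV2P1 were named after their values were seen.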

Additional observations from a re-analysis of the deposited data

How the results depend on the processing

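No paired analysis was possible because both libraries belong to 1 group. With means in place of medians, the class levels were 110, 140 and 29.0 TPM for core, accessory and assembly genes, and with readthrough genes added the accessory median was 94.1 TPM. Leaving out each replicate gave accessory medians of 87.6 to 90.6 TPM. In CPM, which is not per length, the ratio of core to assembly genes was 8.80, and the ratios of complex I subunits to complexes II, III and IV were 0.846, 0.363 and 0.890. Leaving out each replicate gave 0.492 to 0.509 for complex III and 0.490 to 0.505 for complex IV. For differences between the replicates, an assumed biological coefficient of variation of 0.1 left 1 gene, higher in replicate 2, and 0 higher in replicate 1. An added minimum log2 ratio of 0.5 left 2 genes, 1 in each direction. Removal of the GC trend, or of genes with a posterior SD above 10%, left 1 gene higher in replicate 2. The sign of a single gene turned for NDUFAF4 (-0.41) and NDUFS1 (-0.13) with the GC trend removed, for NDUFB2 (0.013 with the GC trend removed, 0.020 by library totals) and for NDUFS4 (0.016 by library totals). NDUFS1 was called in the other direction by library totals (0.08). Of these, NDUFB2 and NDUFS4 passed no test. Apart from the construction of the alternatives, the cause of these changes was not tested. Adding the gene that overlaps NDUFV2, an alternative chosen after seeing the data, gave 41.2 TPM for it. Of the alternatives for summary values, 20 moved by more than the replicate spread or, for counts, by more than 1.5 times, and are those given above. The other 62 moved less, except that the median log2 ratio, which has no replicate spread, was -0.15 as a ratio of TPM against -0.25. With 2 libraries, differences of level between neighbouring genes are mostly within the spread, and the 111 counts of NDUFS4 limit its ratio.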
